A study of Rattus norvegicus with 6 samples.

Results

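Tight clusters of accessible chromatin were examined in the kidney of Dahl salt-sensitive rats. A cluster was defined as a chain of 4 or more accessible regions on chromosomes 1 to 20 in which each region lay less than 500 bp, edge to edge, from the next. The rule gave 243 clusters holding 1012 regions, which was 0.681% of the 148701 autosomal regions and 0.669% of all 151302 regions in the list. Of these clusters 207 held 4 regions, 32 held 5 and 4 held 6. The members were chosen by the gaps between neighbouring regions, a measured value of the same list. Accordingly, their number, gaps and lengths are descriptions of the list and no test was made of them.

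The list belongs to an ATAC-seq study of flash-frozen kidney of Dahl S (SS/Jr) rats, an inbred strain prone to salt-induced hypertension. Of the 6 libraries, 3 were from untreated animals and 3 from animals given 1,3-butanediol at 20% in the drinking water, over the 6 weeks that the series describes. 1,3-butanediol is converted in the liver to the ketone body β-hydroxybutyrate. Age, and the sex behind each library, are not used here, and both sexes entered the study. The list is merged and names no library, and its name sets HMB against HMC, the codes that begin the titles of the butanediol and the untreated libraries. Whether all 6 libraries entered it is not stated in it. No region can therefore be given to a group, no error between animals can be stated, and butanediol-treated and untreated kidneys were not compared here. The depth behind each region is unknown. Kidney tissue mixes many cell types, so members of 1 cluster need not be open in the same cell.

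ATAC-seq marks DNA that a transposase can reach, which is mostly DNA free of nucleosomes at promoters, enhancers and other control elements. Within a larger control element, bound factors and positioned nucleosomes divide the open DNA into stretches separated by protected DNA. Several open stretches side by side are familiar from gene starts, from locus control regions and from groups of enhancers that act on a gene together. Positions below are in the rn6 build and 1-based. Genes and DNA sequence at the clusters were not analysed here, since no annotation or sequence of that build was used.

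Clusters were short and mostly open. From the first to the last base of its members, a cluster measured 2464 bp at the median, and the range was 1393 to 4244 bp. The members of a cluster together covered 1783 bp at the median, with a range of 923 to 3479 bp. The open share of a cluster's length had a median of 75.1%, an interquartile range of 66.6% to 80.05%, and extremes of 46.1% and 95.2%. It was 80% or more in 62 clusters and under 50% in 3. All clusters together spanned 619 kb and covered 456 kb, or 0.617% of the covered autosomal bases. In 90 clusters the members summed to 2 kb or more. The autosomes had 228 regions that reached this width on their own, 191 of them outside any chain.

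The 4 clusters of 6 regions were on chromosomes 3, 10 and 15, and each divided 3099 to 4173 bp into pieces of different size. At chr10:71158007-71162179 the members measured 742, 249, 446, 334, 289 and 685 bp in order, and the gaps between them 144, 414, 266, 371 and 233 bp. The widest members were thus at the ends, with narrower ones between. At chr3:147863771-147867073 the order was similar, with widths of 592, 225, 302, 208, 466 and 688 bp and gaps of 145, 169, 106, 253 and 149 bp. None of its gaps exceeded 253 bp, and it was covered to 75.1%, the highest share of the 4.

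The other clusters of 6 had their widest members inside. At chr3:114360940-114364038 the widths were 403, 244, 211, 490, 320 and 305 bp, with gaps of 141, 392, 350, 19 and 224 bp. At chr15:34142316-34146416 the widths were 374, 582, 246, 556, 568 and 240 bp, with gaps of 324, 458, 14, 453 and 286 bp. Each of these clusters held a pair of regions that almost touched, 19 bp and 14 bp apart, beside gaps of more than 300 bp. Their covered shares were 63.7% and 62.6%, and that of the chromosome 10 cluster was 65.8%.

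**Figure D1:**
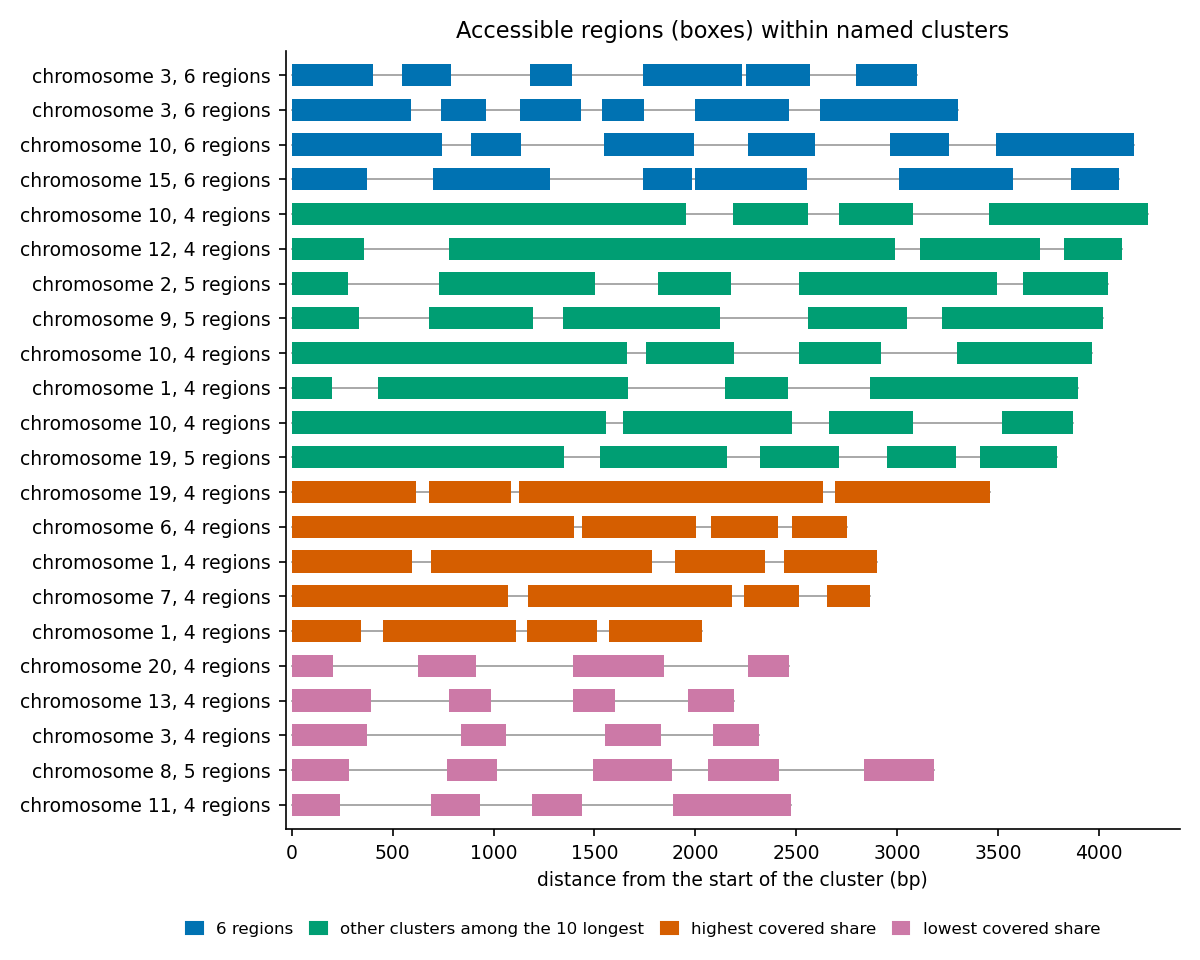
Boxes show the accessible regions of 22 named clusters against the distance in bp from the start of each cluster, and grey lines show the gaps. The 4 clusters of 6 regions (blue) are finely divided, the remaining ones of the 10 longest (green) often hold 1 wide region, and the clusters of highest (orange) and lowest (pink) covered share differ in the size of their gaps.

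The longest clusters were of several builds. The longest, chr10:90262633-90266876, measured 4244 bp and held 4 regions, of which the first alone took 1954 bp and the others 373, 364 and 788 bp. The cluster at chr12:23149354-23153468 measured 4115 bp and contained the widest member of any cluster, 2208 bp, in second place between regions of 360 and 592 bp. By contrast chr9:82210937-82214956, with 4020 bp and 5 regions, had no member above 800 bp. The 10 longest also included chr2:226659248-226663290 with 4043 bp and 5 regions, chr10:37311860-37315824 with 3965 bp and 4 regions, and chr1:54192524-54196418 with 3895 bp and 4 regions. They were completed by chr10:11204837-11208709 with 3873 bp and 4 regions, by chr19:34758063-34761852 with 3790 bp and 5 regions, and by the 6-region clusters of chromosomes 10 and 15. Chromosome 10 thus held 4 of the 10, beside 11.1% of all clusters and 6.43% of autosomal regions. This count is small and was not tested. By bases covered, the first 5 were the chromosome 10 cluster of 4244 bp with 3479 bp, the chromosome 12 cluster with 3451 bp, chr19:38118525-38121985 with 3295 bp, and the chromosome 10 clusters of 3965 and 3873 bp with 3173 and 3171 bp.

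At one extreme, clusters were wide open stretches with slits. The cluster at chr19:38118525-38121985 was covered to 95.2%, its regions of 616, 406, 1504 and 769 bp being separated by 66, 40 and 60 bp. In chr6:58466302-58469054, covered to 93.2%, regions of 1399, 565, 330 and 272 bp followed each other at 38, 75 and 74 bp. Their widths declined from the first to the last. Next came chr1:54183005-54185904 with 89.7%, chr7:12004671-12007536 with 89.5% and chr1:274032895-274034928 with 89.2%, whose largest gaps were 112, 141 and 107 bp. In 16 of the 243 clusters every gap was under 150 bp.

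At the other extreme, regions were isolated within the chain. The cluster at chr20:5576166-5578630 was covered to 46.1%, with regions of 203, 285, 447 and 202 bp and gaps of 424, 484 and 420 bp. At chr13:49150452-49152641 the share was 47.4%, with widths of 392, 211, 206 and 229 bp and gaps of 386, 406 and 360 bp. The cluster at chr3:162952546-162954859 had 47.5%, chr8:78122105-78125288 had 50.8% and chr11:83604025-83606498 had 53.0%. These 3 had largest gaps of 490, 486 and 455 bp, close to the limit of 500 bp.

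Chains became rarer by a similar factor with each further region. On the autosomes 116169 regions stood alone, and there were 13204 chains of 2, 1704 of 3, 207 of 4, 32 of 5 and 4 of 6. Of all 131320 chains, lone regions included, 11.5% had at least 2 regions (95% exact binomial interval 11.4% to 11.7%, which covers counting error only). Of the 15151 chains with at least 2 regions, 12.9% had at least 3 (12.3% to 13.4%). Of the 1947 with at least 3, 12.5% had at least 4 and so were clusters (11.0% to 14.0%). Of the 243 clusters, 14.8% had at least 5 regions (10.6% to 19.9%), and 4 of the 36 with at least 5 had 6 (11.1%, interval 3.11% to 26.1%). The share that extended by a further region thus lay between 11.1% and 14.8% for chains of at least 1 to 5 regions, and none of the 4 chains of 6 extended. With gaps under 250 bp 8.80% of chains of at least 3 regions had 4 or more, with gaps under 1000 bp 17.8%, and among regions of at least 300 bp 9.03%. These shares follow from the gaps that the rule used and are descriptions.

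**Figure D2:**
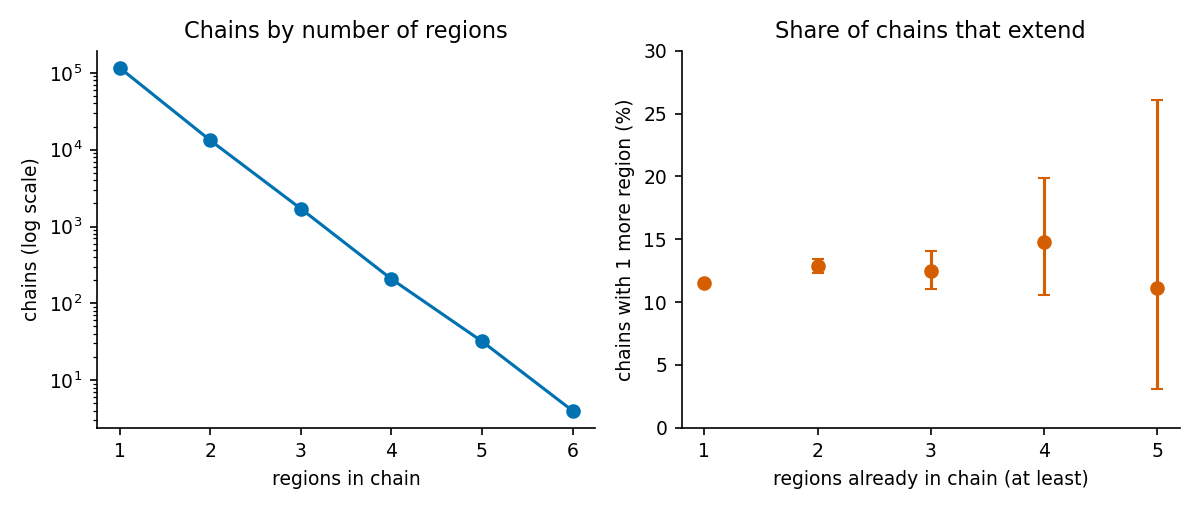
Left, the number of autosomal chains (log scale) by their number of regions, from 116169 lone regions to 4 chains of 6. Right, the share of chains with at least 1 to 5 regions that had a further one, with 95% exact binomial intervals. The shares lie between 11.1% and 14.8%.

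The limit of 500 bp fell in a continuous range of gaps. The largest gap was 490 bp or more in 10 clusters, and 5 further pairs of chains would have made a cluster if the limit were 10 bp higher. Just inside the limit were chr1:141766587-141768992, whose largest gap was 492 bp, chr1:266559180-266562291 with 497 bp, and chr2:188643113-188645507 with 493 bp. The cluster at chr2:194992949-194995257 had the largest gap the limit allows. The chromosome 3 cluster with a largest gap of 490 bp was next by position. Just outside were chr1:87435075-87436954 with a gap of 503 bp, chr2:148873838-148876157 with 500 bp and chr7:25970419-25973163 with 501 bp. The remaining pairs were at chr10:101653611-101656390, 507 bp apart, and at chr15:18391475-18395383, slightly farther apart. The last joined a pair to a pair, and each of the others a lone region to a chain of 3.

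Gaps within clusters had nearly the same distribution as gaps in shorter chains. The 769 gaps in clusters had a median of 185 bp (interquartile range 104 to 307 bp), against 189 bp in chains of 3 and 191 bp in chains of 2. The class of 50 to 99 bp was the fullest in each set, with 17.6% of gaps in clusters, 17.2% in chains of 3 and 17.0% in chains of 2. Gaps of 1 to 49 bp were fewer, at 6.50%, 7.22% and 7.45%. Above 100 bp the counts declined, to 6.11% of gaps in clusters at 400 to 449 bp, and the last class, from 450 bp to the limit, held 6.89%. Gaps under 150 bp made up 40.6% in clusters, or 312 gaps, 39.9% in chains of 3 and 39.5% in chains of 2. Distances between midpoints were shorter in clusters, with a median of 622.5 bp (interquartile range 500.5 to 777 bp) against 659.5 bp in chains of 3 and 677 bp in chains of 2. Since the gaps were alike, most of this difference lay in the widths of the regions.

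**Figure D3:**
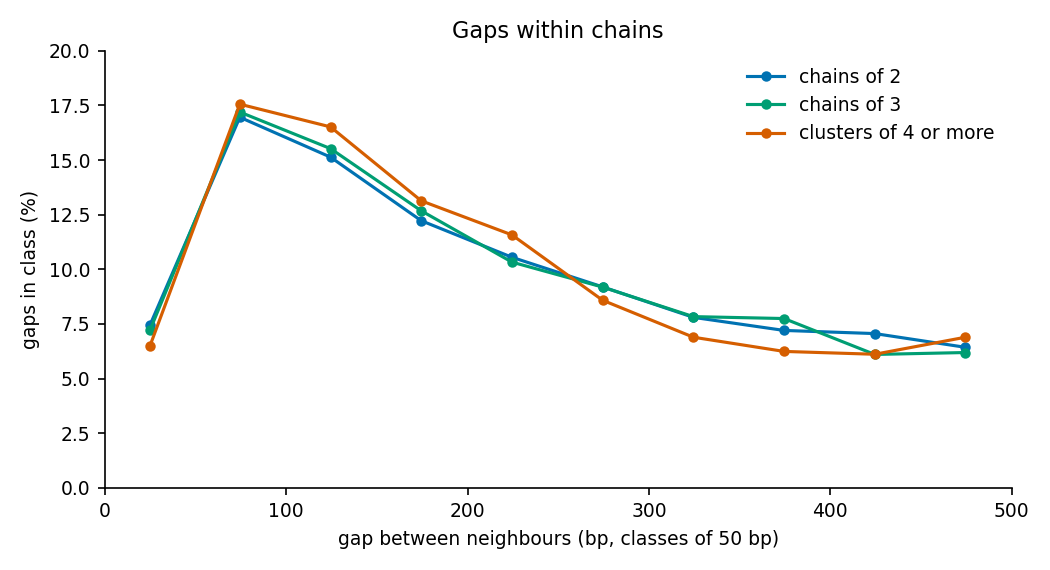
Share of gaps in each class of 50 bp, by distance between neighbouring region edges, for chains of 2 (13204 gaps), chains of 3 (3408 gaps) and clusters (769 gaps). The 3 curves share a maximum at 50 to 99 bp and run close together up to the limit of 500 bp.

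The smallest gap of a cluster had a median of 87 bp and the largest a median of 330 bp. The smallest and the largest of several values differ in any set. These medians therefore do not show that spacing within clusters is particularly uneven, which was not tested. All gaps were under 250 bp in 65 clusters. In 13 clusters, by contrast, none was under 250 bp. Among these, chosen after the values were seen, chr14:104710187-104713455 was the most evenly spaced at long range, with no gap under 487 bp.

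Clustered regions were narrower at the median than autosomal regions as a whole. The rule did not use width, but widths and gaps are measured from the same region edges. Their median was 369.5 bp (interquartile range 268.75 to 533.25 bp) against 399 bp (286 to 604 bp), and their mean 450 ± 270 bp against 497 ± 304 bp (SD over regions). The median declined with the length of the chain, from 400 bp for lone regions to 395 bp in chains of 2, 387 bp in chains of 3, 372.5 bp in clusters of 4, and 354 bp in clusters of 5 and of 6. With gaps under 250 bp the median of clustered regions was 398 bp, only 1 bp below that of all autosomal regions. These differences are small beside the spread within each set, and they were not tested, since regions of 1 list are not replicates.

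The difference was largest in the upper part of the distribution. Regions of 1 kb or more made up 4.55% of clustered regions (46 of 1012), 5.22% in chains of 3, 6.88% in chains of 2 and 8.10% of lone regions. The 95th percentile of width was 969 bp in clusters and 1157 bp for lone regions. At the lower end the 5th percentiles were 204.55 and 202 bp. Regions of exactly 200 bp, the smallest width in the list, made up 3.46% of clustered regions (35 of 1012) and 4.62% of autosomal regions. Clusters therefore held fewer very wide regions without holding more at the minimum width.

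**Figure D4:**
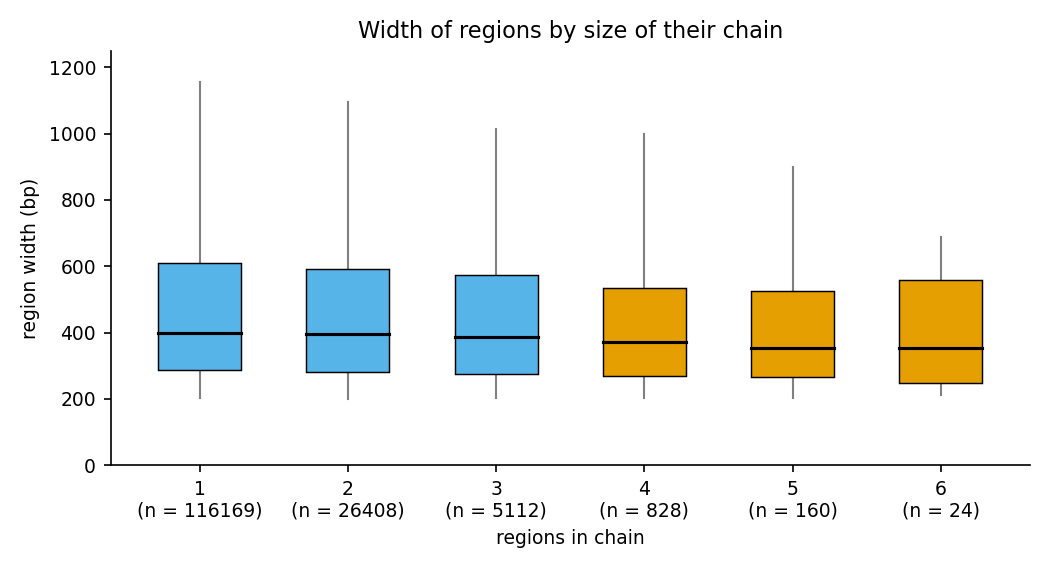
Width of regions in bp by the number of regions in their chain, with lone regions and chains of 2 and 3 in blue and clusters in orange. Boxes give the quartiles, black lines the median and thin lines the 5th to 95th percentile. Medians run from 400 bp for lone regions to 354 bp in chains of 5 and 6.

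Clusters were seldom dominated by 1 region. The widest member had a median of 656 bp and held 37.6% of the covered bases of its cluster at the median. It was 1.40 times as wide as the next at the median, and at least 2 times as wide in 53 clusters. A region of 1 kb or more was present in 44 clusters, or 18.1%, and 2 clusters had more than 1 such region. One of these was chr1:54192524-54196418, with members of 1241 and 1028 bp. In 57 clusters every member was narrower than 500 bp. The cluster of the narrowest members, chr10:91301478-91302959, had none above 249 bp and covered 923 bp, the least of any cluster.

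Members at the ends and inside differed little in width. The 486 end regions had a median of 381 bp and the 526 inner ones a median of 358 bp. In chains of 3 the order was the opposite, with 384 bp at the ends and 395 bp inside. In clusters of 4 the medians from first to last were 406, 347, 363 and 377 bp, and in clusters of 5 they were 308, 417, 361, 382.5 and 359.5 bp, so no common profile was seen. The widest member was an inner one in 114 of 243 clusters, or 46.9% (95% exact binomial interval 40.5% to 53.4%), and inner regions made up 52.0% of members, which lies inside that interval. The narrowest member was an inner one in 135 clusters, or 55.6% (49.1% to 61.9%). Among regions of at least 300 bp, the inner share of members lay outside the interval for the widest member, as given below.

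Every autosome had at least 4 clusters. Over the 20 autosomes there were 1.63 clusters per 1000 regions. Chromosome 10 had the highest rate, 2.82 (27 clusters, 95% exact binomial interval 1.86 to 4.11), followed by chromosome 18 with 2.18 (10 clusters, 1.05 to 4.01), chromosome 1 with 2.06 (35 clusters, 1.44 to 2.87) and chromosome 20 with 1.97 (8 clusters, 0.853 to 3.89). The lowest rates were 1.02 on chromosome 12 (4 clusters, 0.279 to 2.62), 1.14 on chromosome 4 (11 clusters) and 1.17 on chromosome 11 (5 clusters). Of the 20 intervals only that of chromosome 10 left out the rate of all autosomes, and chromosome 10 was singled out after the rates were seen. Exact intervals at the 95% level miss by counting error in at most 1 case in 20, and 20 were examined. Whether chromosome 10 differs beyond counting error was not tested.

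Chromosome 10, with 85.0 regions per Mb, was also the densest autosome. Dense chromosomes did not all follow, since chromosome 12, the next in density with 74.2 regions per Mb, had the lowest rate of clusters. That rate rests on 4 clusters, and its interval holds the rate of all autosomes. Chromosome 18, near the top in clusters, was fourteenth in density with 52.4 regions per Mb. Chromosome 10 ranked first in chains of 2 (96.5 per 1000 regions) and second in chains of 3 (13.7), behind chromosome 20 (15.8). The spread between the highest and the lowest autosome grew with chain length, from 1.20-fold for chains of 2 to 1.77-fold for chains of 3 and 2.76-fold for clusters, as counts became smaller. With gaps limited to 250 bp, chromosome 10 held 5.48% of clusters in place of 11.1% and ranked eleventh.

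**Figure D5:**
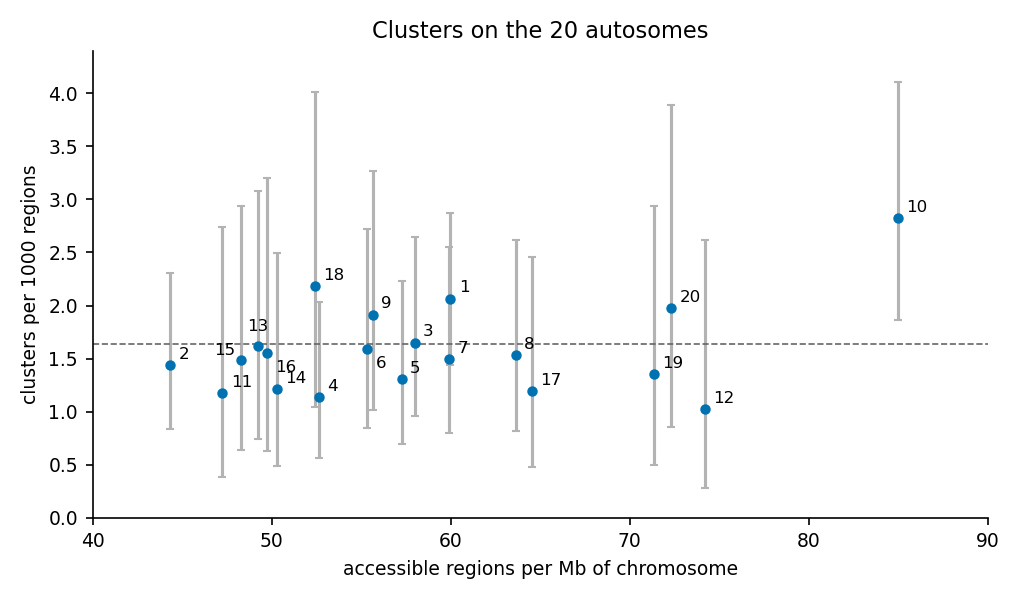
Clusters per 1000 regions on each of the 20 autosomes (numbered points) against the number of regions per Mb, with 95% exact binomial intervals and the rate over all autosomes, 1.63, as a dashed line. Chromosome 10 stands at 2.82 and 85.0 regions per Mb, while chromosome 12 stands at 1.02 and 74.2.

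Clusters lay in richer surroundings than lone regions at the median. Within 500 kb on each side of its centre, a cluster had a median of 107 further regions (interquartile range 83 to 134). Chains of 3 had 100, chains of 2 had 96 and lone regions had 91. Stretches of similar length differed less. Among those of 2 kb or more, the median number of further regions was 111 for clusters, 105 for chains of 3, 104 for chains of 2 and 99 for single regions. When autosomal regions were divided into 4 groups of nearly equal size by this number, the rate of clusters was 0.976 per 1000 regions in the sparsest group (37 clusters), then 1.14 (42), 2.03 (77) and 2.42 in the densest (87). Chains of 2 differed less between these groups, with 75.8, 88.6, 92.0 and 99.3 per 1000 regions. Local density is itself a measure of spacing, so this relation is not independent of the rule.

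The rate on chromosome 10, a chromosome picked after the rates were seen, was also set out by surroundings, with few clusters in each group. At 93 to 122 further regions, chromosome 10 had 4.93 clusters per 1000 regions (13 clusters, 95% interval 2.63 to 8.42) against 1.81 on the other autosomes (64 clusters, 1.39 to 2.31). In the densest group, at 123 or more, the rates were 2.27 (10 clusters, 1.09 to 4.17) and 2.44 (77 clusters, 1.92 to 3.05). At 64 to 92 further regions they were 2.96 (4 clusters, 0.807 to 7.56) and 1.07 (38 clusters, 0.759 to 1.47). In the sparsest group chromosome 10 had no cluster among 1165 regions (0 to 3.16), against 1.01 on the other autosomes (37 clusters, 0.709 to 1.39). Each of these intervals of chromosome 10 holds its rate over all surroundings, 2.82, so no change of its rate with surroundings is shown. Chromosome 12 had 3 of its 4 clusters in the densest group, at 2.14 per 1000 regions there (0.442 to 6.25). Differences between the groups were not tested.

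Clusters also occurred in sparse stretches. With fewer than 30 further regions in their surroundings there were 8 clusters, 3.29% of all, against 7.19% of lone regions. The share was 4.44% for chains of 2, 3.70% for chains of 3 and 3.66% for single regions of 2 kb or more. A low share was thus not particular to clusters. Among clusters, the sparsest surroundings were those of chr6:58466302-58469054, the slit-like cluster described above, with 14 further regions and 89337 bp to the region before it. At chr1:30682637-30684626 there were 15, and at chr11:11585569-11587580 and chr11:25348588-25352342 there were 18. The most crowded was chr7:12004671-12007536, with 219 further regions. These clusters were picked after their surroundings were seen.

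Beyond its ends, the nearest region outside a cluster lay 3899 bp away at the median (interquartile range 1877.5 to 6464 bp), compared with 4493 bp for chains of 3, 3859 bp for chains of 2 and 3742 bp for lone regions. Single regions of 2 kb or more had a median of 5654 bp to the nearest region, against 4064 bp for the 193 clusters of 2 kb or more, 4579 bp for chains of 3 and 5042 bp for chains of 2 of that length. Among stretches of 2 kb or more, whose median lengths ran from 2151 bp for single regions to 2611 bp for clusters, the median distance was thus smaller the more regions they were divided into. Chains of every length together did not show this order, and it was not tested. Each distance is an edge-to-edge gap, the value that the rule used, so the order is not independent of the rule. A further region at 500 to 999 bp, just beyond the limit, was present at 36 clusters (14.8%), at 11.97% of chains of 3 and at 13.1% of lone regions. Long isolation was rare, with 6 clusters (2.47%) more than 20 kb from any other region against 7.48% of lone regions. Chains of 3 had 3.17%, chains of 3 of 2 kb or more 2.50%, and single regions of that length 4.71%. The low share was thus not particular to clusters. The most isolated cluster, chr2:207921782-207923731, had 37755 bp to the nearest region.

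Clusters were mostly far from each other. The distance between neighbouring clusters of a chromosome had a median of 4.53 Mb (interquartile range 1.45 to 13.5 Mb, 223 distances). It was under 1 Mb in 41 cases, under 100 kb in 11 and under 10 kb in 2. The closest pair was on chromosome 1, where 6619 bp separated chr1:54183005-54185904 from chr1:54192524-54196418. The members of the former measured 598, 1096, 444 and 462 bp and those of the latter 200, 1241, 316 and 1028 bp. On chromosome 19, 6819 bp lay between chr19:38118525-38121985 and chr19:38128805-38131297. The latter had regions of 224, 1016, 227 and 285 bp and gaps of 44, 242 and 455 bp, and was covered to 70.3%, far less than its neighbour.

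Several clusters lay near each other at 2 places described here, chosen after their positions were seen. On chromosome 10 the clusters chr10:11114747-11117120, chr10:11166018-11168836 and chr10:11204837-11208709 were 48.9 and 36.0 kb apart, and chr10:10640015-10641811 lay 472935 bp before the first of them. On chromosome 4, chr4:78207331-78209837, chr4:78377882-78379854 and chr4:78433492-78435634 were 168 and 53.6 kb apart. Among 21823 pairs of clusters with equal numbers of regions, none had all widths and gaps within 10 bp of each other in either orientation. The closest pair differed by up to 62 bp. Copies with shifted region edges or another number of regions would be missed, and sequence was not analysed. Whether some clusters are copies of each other therefore cannot be told from this.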

How the data were processed

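Per the labels' protocols, nuclei from 100 mg of frozen kidney powder were enriched on a gradient, 50000 were tagmented by Omni-ATAC, and libraries were read as 150-base pairs. The submitters' processing notes name FastQC, Trim Galore, cutadapt and the rn6 build. The aligner, peak caller, thresholds and merging rule were not given in the sources used here. A caller that splits or joins nearby summits, and a merge over libraries, would change gaps and widths directly.

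The authors deposited 1 list with 4 columns (chromosome, start, end, name), whose only measurements are positions; starts were read as 0-based. Regions were sorted, chained and measured in Python 3.11.15 with numpy 2.4.6, pandas 2.3.3 and scipy 1.17.1, and drawn with matplotlib 3.10.9. Shares carry 95% exact (Clopper-Pearson) binomial intervals, which treat regions as independent. On simulated chains built with the same gap limit, 3540 of 3540 were recovered with their size. This checks the code only and says nothing on the accuracy of the list. Groups follow the treatment label, and replicate numbers follow accession order. The clusters and measures were chosen with earlier results of these data known. Named clusters are those with the most regions, the 10 longest, the 5 most covered, the 5 of highest and the 5 of lowest covered share, those within 10 kb of another, and up to 5 on each side of the gap limit. The planned group comparison and gene locations were not run, for want of values per library and of an rn6 annotation. Other limits on gap, width and number of regions were tried.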

Additional observations from a re-analysis of the deposited data

Results flagged for a closer look

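The X chromosome, which the autosomal rule leaves out, also carried chains of 4 or more regions. It had 8 among its 2580 regions, or 3.10 per 1000 regions (95% exact binomial interval 1.34 to 6.10), an interval that holds the autosomal rate of 1.63. The longest was chrX:122937002-122940348 with 5 regions over 3347 bp, and a pair lay close together at chrX:11570112-11572388 and chrX:11592451-11594903. The Y chromosome, with 21 regions, had none.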

How the results depend on the processing

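The number of clusters depended strongly on the definition. From 243 it went to 73 with gaps under 250 bp, 704 with gaps under 1000 bp, 58 among regions of at least 300 bp, 1947 with at least 3 regions and 36 with at least 5. It was 169 at 400 bp, 323 at 600 bp, 213 without regions of exactly 200 bp and 295 by midpoints under 1000 bp apart. With gaps under 250 bp the median width of members was 398 bp, so that the difference from all autosomal regions was -1 bp in place of -29.5 bp. Among regions of at least 300 bp it was 462 bp, and all such regions had 497 bp. At 250 bp the widest member was an inner one in 56.2% of clusters (44.1% to 67.8%), with 51.3% of members inner. Among regions of at least 300 bp it was inner in 36.2% (24.0% to 49.9%). There 51.1% of members were inner, which lies outside that interval. Chromosome 10 held 5.48% (1.51% to 13.4%) and 17.2% (8.59% to 29.4%) of clusters in these settings. The median number of further regions around a cluster was 87.5 among regions of at least 300 bp, with 67 around lone regions. Clusters had richer surroundings than lone regions in the 3 settings tried, by 11, 20 and 20.5 regions. Inner members were not narrower than end members at 1000 bp, where the difference of medians was 0. Chromosome 10 ranked eleventh, first and second by clusters per 1000 regions at 250 bp, at 1000 bp and among regions of at least 300 bp. The cause of these shifts was not tested. No paired analysis was possible because positions pooled over libraries are the only values, and leaving out libraries was not run for the same reason. The unknown depth leaves it unclear which gaps are closed and which merely fell below the caller's threshold.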
